A study of Mus musculus with 8 samples.

Results

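The 4 empty-vector control libraries of a knockdown study in mouse E14 cells, an established male embryonic stem cell line, were taken as 1 set, and they make up 4 of the 8 libraries of the series. They were chosen by their labels alone, as the 2 libraries named Cct5 KD Ctr and the 2 named Cct7 KD Ctr, and were joined by gene identifier. Control cells had been infected with virus carrying the pLKO-Tet on-Puro vector without a hairpin, whereas in the knockdown cells the same antibiotic-controlled vector expressed a hairpin to either Cct5 or Cct7. Puromycin at 0.5 µg/ml was applied over 14 days, and positive clones were picked. Doxycycline (2 µg/ml) was then given to every group, controls included, over 2 days, and the cells were kept mainly in serum plus LIF. The study asked whether CCT subunits hold back a move from pluripotency to totipotency. The controls are not untreated parental cells: they share the vector, the selection and the antibiotic with the knockdown cells. Poly(A) RNA was sequenced as 150 bp pairs in strand-marked libraries. Nothing in the sources says how many clones were pooled, whether the replicates are separate cultures, or how the Cct5 KD Ctr and Cct7 KD Ctr cultures differ beyond their names. Every p-value below therefore measures only the spread between libraries, which may be technical.

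Embryonic stem cells in serum and LIF self-renew under the transcription factors Pou5f1 (Oct4), Sox2 and Nanog, which bind together at enhancers of stem cell genes, while LIF acts through Stat3. Such cultures are a mixture, since a minority of cells moves towards the formative state that precedes lineage choice, and a few enter a state that resembles the 2-cell embryo. Genes of differentiated tissues are held off by Polycomb complexes and DNA methylation, and many gene families use 1 member in stem cells and another in a mature tissue. Promoters of broadly used genes usually lie in CpG islands, whereas tissue-restricted promoters are often poor in CpG.

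The miR-290 cluster is the main microRNA locus of mouse embryonic stem cells, and its products speed the passage from G1 to S phase. Its mature 3p microRNAs are shown because the hairpins of the cluster were read in these libraries. Their values were higher in both Cct5 KD Ctr libraries than in both Cct7 KD Ctr libraries, as described further on. The capitals mark the seed, bases 2 to 8, which sets the choice of target.
mmu-miR-290a-3p: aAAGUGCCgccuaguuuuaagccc
mmu-miR-291a-3p: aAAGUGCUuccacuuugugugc
mmu-miR-291b-3p: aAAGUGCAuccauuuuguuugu
mmu-miR-293-3p: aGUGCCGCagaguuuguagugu
mmu-miR-294-3p: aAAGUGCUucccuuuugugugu
mmu-miR-295-3p: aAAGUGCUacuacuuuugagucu
These sequences are those of RefSeq for mouse, and a 3p sequence was matched for 6 of the 7 hairpins of the cluster. Bases 2 to 7 were AAGUGC in 5 of the 6. The full seed AAGUGCU was shared by 3 of them, miR-291a-3p, miR-294-3p and miR-295-3p. The seed of miR-293-3p, GUGCCGC, differed from the rest.

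The 250 bases before the RefSeq start of the 3 stem cell factors and of Afp, the fetal liver and yolk sac protein alpha-fetoprotein, are shown because CpG content at the start site ran with expression level in these libraries. Coordinates are of GRCm38.p6, the assembly also called mm10, and capitals mark each CG.
Pou5f1, chr17:35505782-35506031, + strand: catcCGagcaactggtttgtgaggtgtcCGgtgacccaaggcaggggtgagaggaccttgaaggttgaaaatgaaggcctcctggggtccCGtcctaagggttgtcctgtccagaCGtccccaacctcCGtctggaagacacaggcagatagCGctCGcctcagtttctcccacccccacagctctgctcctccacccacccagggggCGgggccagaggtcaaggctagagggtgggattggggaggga
Sox2, chr3:34649745-34649994, + strand: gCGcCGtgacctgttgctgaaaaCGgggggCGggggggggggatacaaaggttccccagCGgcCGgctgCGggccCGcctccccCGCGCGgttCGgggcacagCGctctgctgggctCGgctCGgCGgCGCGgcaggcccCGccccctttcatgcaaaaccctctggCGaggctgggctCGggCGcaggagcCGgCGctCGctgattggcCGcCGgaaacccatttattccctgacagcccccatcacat
Nanog, chr6:122707239-122707488, + strand: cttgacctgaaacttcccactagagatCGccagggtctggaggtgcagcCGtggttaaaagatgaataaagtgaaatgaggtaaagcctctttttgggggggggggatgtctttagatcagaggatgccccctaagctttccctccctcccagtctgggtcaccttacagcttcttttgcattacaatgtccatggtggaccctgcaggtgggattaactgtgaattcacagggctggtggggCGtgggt
Afp, chr5:90490464-90490713, + strand: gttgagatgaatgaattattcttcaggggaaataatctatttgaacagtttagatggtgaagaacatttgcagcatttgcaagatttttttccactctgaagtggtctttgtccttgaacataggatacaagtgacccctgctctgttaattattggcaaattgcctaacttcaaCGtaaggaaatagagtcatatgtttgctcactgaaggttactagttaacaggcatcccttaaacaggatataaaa
These windows held 27 CpG in Sox2, 8 in Pou5f1, 3 in Nanog and 1 in Afp. Mean levels over the 4 control libraries were 339, 456 and 301 FPKM in the 3 stem cell genes in that order, and 0.0676 FPKM in Afp. FPKM is the number of read fragments per kilobase of transcript, scaled to the depth of the library. Nanog shows that a low count of CpG does not by itself go with a low level.

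Over all genes the relation was gradual. A promoter window was matched for 12204 of 15086 listed protein-coding genes on chromosomes other than 18 and the mitochondrial one (80.9%). The median count of CpG in the 250 bases was 7 in the 780 genes under 0.1 FPKM and 9 in the 2362 genes between 0.1 and 1 FPKM. It was 15 in the 4243 genes between 1 and 10 FPKM, 17 in the 4274 genes between 10 and 100, and 18 in the 545 genes at 100 FPKM or more. The share with at least 10 CpG was 40.8% in the lowest class and 84% in the highest, against 68.8% of all matched promoters. CG was counted once for both strands, since it reads the same on each. These values describe genes within 1 mean transcriptome, and genes are not replicates of a condition.

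Markers of embryonic stem cells were high in all 4 libraries. Pou5f1 was at 459 and 461 FPKM in the 2 Cct5 KD Ctr libraries and at 445 and 458 in the 2 Cct7 KD Ctr libraries. Sox2 was at 348, 339, 325 and 344 FPKM in the same order, and Nanog at 303, 302, 299 and 300. In Sox2 the libraries of the 2 groups overlapped, while in Pou5f1 and Nanog both Cct5 KD Ctr libraries lay above both Cct7 KD Ctr libraries by a few percent at most. The label of an embryonic stem cell line matched its 3 defining markers, which ranked 135th (Pou5f1), 174th (Sox2) and 199th (Nanog) of 19896 genes.

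All 32 genes of a list of general and naive pluripotency were at 10 FPKM or more, with a median of 54.73 FPKM. Dppa5a, an RNA-binding protein of stem cells and germ cells, led the list at 1930, 1890, 1800 and 1970 FPKM, where the groups overlapped. Tdgf1 (Cripto), the co-receptor of Nodal, was at 840, 842, 884 and 891 FPKM, with the Cct7 KD Ctr libraries above the others. Zfp42 (Rex1) was at 602 ± 22.7 FPKM (SD, n = 4), Esrrb at 77.9 ± 1.98, Klf4 at 22.1 ± 0.353 and Nr0b1, the lowest of the 32, at 12.8 ± 1.1. Dppa3 (Stella), a maternal factor expressed in only part of the cells of a serum culture, stood at 75, 71.4, 65.2 and 75.4 FPKM. Cell-to-cell mixture cannot be read from bulk RNA: fewer cells of a type and less RNA per cell cannot be told apart here.

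Genes of the formative and primed states were expressed beside the naive ones. Of 25 listed genes 23 were in both tables and 19 of these reached 1 FPKM. Etv5, a transcription factor downstream of FGF signalling, was at 102 ± 1.61 FPKM (SD, n = 4), and the de novo methyltransferase Dnmt3b at 63.2 ± 4.43. Otx2, which starts the exit from the naive state, was at 75.2, 76.1, 76.3 and 79.7 FPKM. The values of the later markers were far lower: Pou3f1 (Oct6) was at 3.99 ± 0.535 FPKM, Fgf5 at 1.96 ± 0.417 and T (brachyury) at 0.165 ± 0.0321.

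Transcripts of the 2-cell-like state were detected at low levels. Of 34 listed genes 28 were in both tables, 18 reached 1 FPKM and 0 reached 10 FPKM. The highest were Gm5662 at 8.92 ± 0.349 FPKM (SD, n = 4), Gm21761 at 6.05 ± 0.647, Zscan4d at 5.65 ± 0.423 and Zscan4c at 5.64 ± 0.219. Zscan4c was at 5.63, 5.53, 5.46 and 5.96 FPKM in the 4 libraries, so that the groups overlapped. Copies of these genes are nearly identical, and how shared reads were counted is not given, so their separate levels are uncertain. Dux, the factor that opens this program, was not among the genes in both tables.

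Receptors and downstream genes of LIF and FGF, the signals on which the culture rests, were all at 1 FPKM or more (24 of 24, 14 of them at 10 or more). Il6st (gp130), the subunit shared by cytokines of the LIF family, was at 12.7 ± 0.321 FPKM (SD, n = 4). The LIF receptor Lifr was listed at 197 ± 4.26 FPKM, but that value is for a transcript of 577 bases, and by its longest coding transcript Lifr was at 11.8 FPKM. Fgf4, the main FGF ligand of these cells, likewise went from 1030 to 134 FPKM. The next paragraphs show how far this choice of length reaches.

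The cells were male. Eif2s3y, a translation factor gene of the Y chromosome, was at 44.6, 42.2, 44.9 and 44.2 FPKM, Ddx3y at 16 ± 0.785 (SD, n = 4) and Uty at 7.7 ± 0.308. Xist, the RNA that silences an X chromosome in female cells, was at 0.0295, 0.0604, 0.0473 and 0.0311 FPKM, and its antisense partner Tsix at 1.09 ± 0.113. The median X-linked gene stood at 0.907 ± 0.0197 (SD, n = 4) of the median autosomal gene, over 411 X-linked and 10817 autosomal protein-coding genes at 1 FPKM or more. With coding lengths this ratio was 0.853 ± 0.007.

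Expression was concentrated in few genes. Of 19896 genes in both tables, 12762 (64.1%) had a mean of at least 1 FPKM, 6208 of at least 10, 706 of at least 100 and 66 of at least 1000. Per library, 12697 and 12702 genes in Cct5 KD Ctr and 12802 and 12829 in Cct7 KD Ctr reached 1 FPKM. The 10 highest genes held 11.85% ± 0.222 (SD, n = 4) of all FPKM, the 100 highest 34.83% ± 0.1549 and the 1000 highest 65.06% ± 0.2698. Of 21951 annotated protein-coding genes 15489 were in both tables and 11247 reached 1 FPKM, as did 1499 of 4366 noncoding or pseudogene entries.

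**Figure D1:**
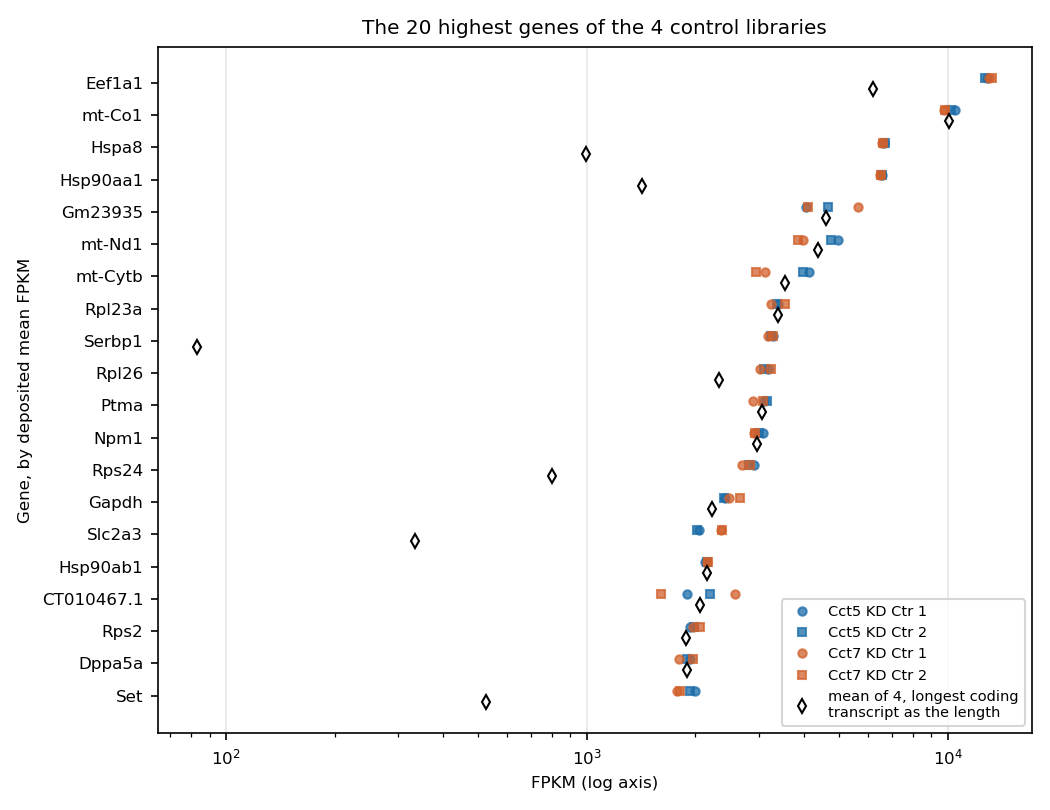
The 20 genes with the highest mean FPKM, with each of the 4 control libraries as a point on a log axis, and the mean recomputed with the longest coding transcript as the length as an open mark. Libraries lie close together in most genes, while for Serbp1, Hspa8, Hsp90aa1 and Slc2a3 the open mark lies far to the left of the deposited values.

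Translation, mitochondrial and chaperone transcripts led the ranks. Eef1a1, which brings transfer RNA to the ribosome, was the highest as deposited, at 12900, 12700, 13000 and 13300 FPKM. The mitochondrial cytochrome oxidase subunit mt-Co1 followed at 10500, 10200, 9750 and 9810 FPKM, higher in both Cct5 KD Ctr libraries. Hspa8, the constitutive HSP70, and Hsp90aa1 took ranks 3 and 4, at 6650 ± 55.9 and 6550 ± 45.1 FPKM (SD, n = 4). Ribosomal protein genes made up 4 of the 20 and 55 of the 100 highest genes. As a class of 88 genes they held 15.75% ± 0.2947 of FPKM and, being short, 6.517% ± 0.1531 of fragments. Slc2a3 (GLUT3), a high-affinity glucose transporter, Gapdh and Dppa5a were also among the 20.

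The top 20 also held 2 entries that are not messenger RNAs, with a wide spread among libraries. Gm23935, an entry of 57 bases annotated as a microRNA, was at 4060, 4670, 5630 and 4090 FPKM. CT010467.1, annotated as ribosomal RNA, was at 1900, 2190, 2570 and 1610 FPKM. In both entries Cct7 KD Ctr 1 was the highest library, and the groups overlapped. Among mitochondrial messengers, mt-Co2, mt-Co3 and mt-Atp6 were far below mt-Co1. Their values were 11.2, 12.1, 7.98 and 26.9 FPKM for mt-Co2 and 20.8, 21.5, 14.6 and 37.5 for mt-Co3. In each of these, as in mt-Atp6 at 13, 14.9, 12 and 28.2 FPKM, Cct7 KD Ctr 2 was the highest library. Near-identical nuclear copies of parts of the mitochondrial genome exist, so levels of single mitochondrial genes are uncertain.

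Levels of different genes depend on the transcript length by which the authors divided, and that length could be read back from the values. In 19573 genes the values of all 4 libraries were whole fragment numbers for just 1 annotated transcript length. Of 13518 protein-coding genes with several transcripts, 73.2% had been divided by their longest coding transcript, and 657 (4.86%) by a length under 0.5 of it. Among the 100 highest genes, 15 had been divided by a length under 0.5 of the longest coding transcript. By coding length 89 of the 100 and 14 of the 20 highest genes stayed in those ranks.

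The genes concerned include well-known ones. Eef1a1 was divided by 859 bases, where its longest coding transcript has 1794, and by that length stood at 6220 FPKM and rank 2, below mt-Co1. Hspa8 was divided by 357 bases, where its longest coding transcript has 2394, and went from 6650 to 992 FPKM and from rank 3 to rank 51. Hsp90aa1 went from 6550 to 1420 FPKM and from rank 4 to rank 29. Serbp1, an RNA-binding protein of the ribosome, went from 3250 to 83.3 FPKM and from rank 9 to rank 757. Slc2a3 went from 2200 to 334 FPKM, and Psat1, a serine synthesis enzyme, from 480 to 108. The longest coding transcript need not be the one expressed either, so neither length is taken as right. Fold changes of these genes between control libraries are not touched, since the same length divides each of the 4. That length also gave whole fragments in Cct7 KD in all but 29 of 19573 genes.

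Most genes of differentiated lineages were low. None of those in both tables was at 0 in all 4 libraries. Over all 19896 genes only 12 were, so this result could hardly come out otherwise. The 9 lists of somatic and extraembryonic lineages held 194 distinct genes, of which 64 were not in both tables. Of the 130 that were, 22 had a mean under 0.1 FPKM, 61 lay between 0.1 and 1, 47 reached 1 and 11 reached 10. By coding length 45 reached 1 FPKM and 10 reached 10. Over all 19896 genes, 8.19% were under 0.1 FPKM and 27.7% between 0.1 and 1. The tables appear to omit genes with the fewest reads: all 5550 genes with 1 transcript in the Cct7 table had at least 5 fragments in 1 or more of its 4 libraries, and 331 had exactly 5 in their highest library. Absence from a table is therefore not a measured 0. These lists were drawn up with earlier results of these data known.

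**Figure D2:**
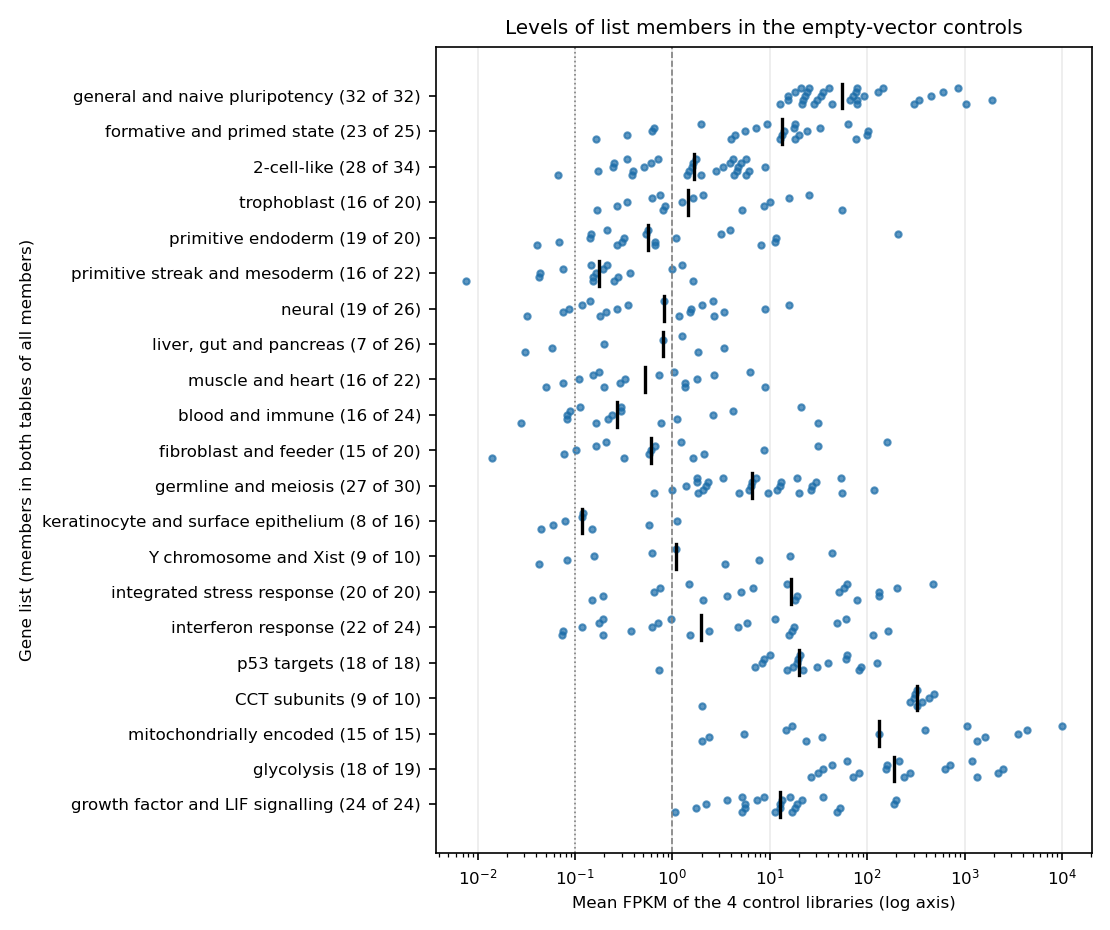
Mean FPKM of each listed gene over the 4 control libraries on a log axis, by gene list, with the median of each list. The pluripotency, glycolysis and CCT lists lie above 1 FPKM throughout, and the streak, keratinocyte and blood lists have medians under 1 FPKM.

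Trophoblast genes reached 1 FPKM in 9 of 16 members in both tables. Peg10, an imprinted gene of the placenta, was at 53.4, 53.3, 57.3 and 55 FPKM, Tfap2c at 25.4 ± 1.43 (SD, n = 4) and Krt18 at 15.6 ± 0.506. The trophoblast regulators Eomes and Hand1 were at 1.62 and 1.24 FPKM, and Cdx2 was not in both tables. Krt7 was listed at 9.94 FPKM and was at 0.852 by coding length. Krt8, another keratin, was at 8.72 FPKM, Esx1 at 5.23 and Ascl2 at 2.06.

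Primitive endoderm genes reached 1 FPKM in 7 of 19, mainly through matrix proteins. Sparc was at 208 ± 2.95 FPKM (SD, n = 4) as deposited and at 115 by coding length, the collagen Col4a1 at 11.4 and the laminin Lama1 at 8.18 ± 0.111. The regulators that define the lineage were all under 1 FPKM: Gata6 was at 0.663 ± 0.101, Gata4 at 0.567 ± 0.0761, Sox17 at 0.211 ± 0.0353 and Foxa2 at 0.0407 ± 0.0194. Hnf4a was listed at 11.5 FPKM and was at 1.13 by coding length. The collagen Col4a2 was at 3.94 FPKM, and the endocytic genes Dab2 and Cubn at 3.14 and 1.08. Primitive streak and mesoderm genes were lower still, with 2 of 16 at 1 FPKM, Eomes and Hand1. Mixl1 was at 0.215, 0.267, 0.078 and 0.206 FPKM.

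Neural genes reached 1 FPKM in 9 of 19, led by the tubulin Tubb3 at 16.3, 17, 14.5 and 15.4 FPKM. Neurod1 was at 3.35 ± 0.478 FPKM (SD, n = 4) and En2 at 2.65 ± 0.0896, while Gad1 went from 8.96 to 1.06 by coding length. The other neural genes above 1 FPKM were Syn1 at 2.6, Map2 at 2, Slc17a7 at 1.56, Gbx2 at 1.53 and Pax6 at 1.16, the last at 0.67 by coding length. Of 26 liver, gut and pancreas genes 19, among them Alb, were not in both tables, and 3 reached 1 FPKM: Muc2 at 3.38, Cela1 at 1.84 and Vil1 at 1.27. Muscle and heart genes reached it in 7 of 16, the highest being cardiac troponin Tnni3 at 8.83 ± 1.01 and desmin (Des) at 6.3 ± 0.421. Myh3 was at 2.65 FPKM, Mb at 1.79, Ryr1 at 1.35, Myh6 at 1.34 and Tnnt2 at 1.03. Blood and immune genes reached it in 5 of 16, with Kit at 31.1 ± 0.234, the lysosomal protein Cd68 at 21 ± 3.32 and Gata1 at 4.16 ± 0.843, or 1.48 by coding length. Cd34 was at 2.59 FPKM and Cd3e at 1.13. Cd68 was at 18.8, 17.7, 24.8 and 22.8 FPKM, with both Cct7 KD Ctr libraries above the others.

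Feeder cells, on which stem cells are often grown, would bring fibroblast transcripts. Of 20 fibroblast genes 15 were in both tables and 6 reached 1 FPKM, led by Fn1 at 161 ± 8.8 FPKM (SD, n = 4), Vim at 31.4 ± 1.5 and Thy1 at 8.66 ± 0.411. Col5a1, Tagln and Pdgfrb were at 2.09, 1.64 and 1.24 FPKM. Of 8 keratinocyte and surface epithelium genes in both tables, Krt10 alone reached 1 FPKM, at 1.12. The defining fibrillar collagens were low, with Col1a1 at 0.444, 0.572, 0.649 and 0.608 FPKM and Col1a2 at 0.205, and Col3a1, Postn, Dcn and Lum were not in both tables. Summed over the fibroblast list, levels ran from 197.6 to 219.4 FPKM, of which Fn1 held most.

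Germline genes were expressed more widely, with 25 of 27 at 1 FPKM and 11 at 10. Rhox5, an X-linked homeobox gene of the placenta and testis, was at 118, 118, 112 and 123 FPKM. Xlr3a was at 55.8 ± 4.58 FPKM (SD, n = 4), Tex19.1, a guard against retrotransposons, at 53.6 ± 4.15, Prdm1 at 30.1 (4.73 by coding length), Dazl at 18.9 ± 0.57 and Ddx4 at 9.69 ± 0.47.

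Whole families defined by name were close to silent. Of 39 annotated Hox genes 27 were in both tables, 18 of these were under 0.1 FPKM and 0 reached 1 FPKM. Of 1135 olfactory receptor genes 22 were in both tables and 1 reached 1 FPKM, and of 331 vomeronasal receptor genes 8 were in both and 0 reached it. Protocadherins of the clusters were in both tables in 22 of 57 cases with 0 at 1 FPKM, and 0 of 57 keratin-associated protein genes were in both. By contrast 336 of 416 genes named Zfp or Zscan (80.8%) reached 1 FPKM.

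Many stress and damage genes were expressed in these doxycycline-treated controls. Of 18 p53 target genes 17 reached 1 FPKM, led by Ccng1 at 127 ± 2.92 FPKM (SD, n = 4) and Cdkn1a (p21) at 86.8 ± 4.86. By coding length Cdkn1a was at 38.5 FPKM, below Trp53inp1 at 82.7 and Mdm2 at 62. Interferon-response genes reached it in 12 of 22, with Ifitm1 at 164 ± 3.41 and Ifitm3 at 116 ± 9.5. Integrated stress response genes reached it in 16 of 20. Over all 19896 genes 64.1% reached 1 FPKM, so these counts alone do not show that a stress program was active. No culture without doxycycline or vector was analysed here.

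CCT, the chaperonin that the study targets, folds actin and tubulin and is built from 8 different subunits per ring. In the controls those 8 genes lay between 276 and 484 FPKM. Cct2 was at 488, 482, 480 and 488 FPKM, Cct5 at 368, 367, 356 and 360, and Cct7 at 278, 277, 269 and 280. The spread within each gene was at most 8.64 FPKM (SD, n = 4, Cct6a), small against the differences between subunits. Neighbours in the order differed little, as Cct3 at 328 ± 6.63 and Cct8 at 323 ± 5.85. The testis subunit Cct6b was at 2.03 ± 0.384 FPKM. In Cct7 KD, Cct7 was at 16.1 FPKM, the mean of 2 libraries. Unlike the control values, its Cct7 KD values were not whole fragments, and how they were made is not known.

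Families of related genes mostly relied on 1 member. Within 40 families the member with the highest mean FPKM also led in each of the 4 libraries. It held a median of 79.9% of its family's FPKM, and at least 90% in 11 families. The SD of that share over the 4 libraries had a median of 0.708 percentage points and a maximum of 2.59. In 3 of the 40 families only the leading gene could be used, and among these are the aldolases, since the muscle and general form Aldoa was listed 2 times with different values and left out. In those 3 families the lead and the share of 100% were fixed in advance. They are part of the median and of the 11 families above. For 38 families every listed member had a recovered length, and in 36 of these the leader was the same by coding length.

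**Figure D3:**
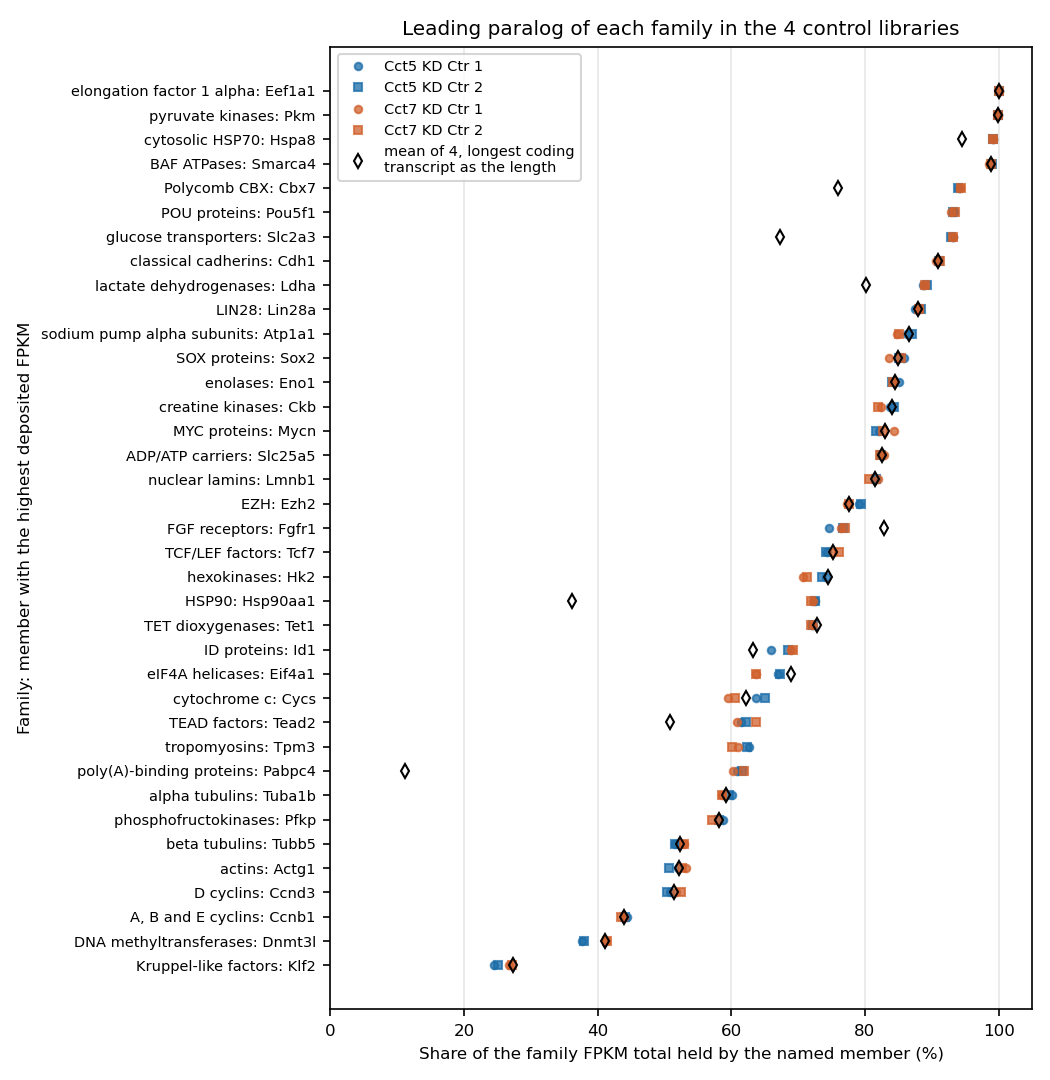
Share of its family's FPKM held by the leading member, for the 37 families with more than 1 listed member, with the 4 control libraries as points and, for families with every length recovered, the share by coding length as an open diamond. The points of a family lie within a few percentage points, and the diamonds of Pabpc4, Hsp90aa1, Slc2a3 and Cbx7 lie well to the left.

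Among transcription factors, Pou5f1 held 93.21% ± 0.2481 (SD, n = 4) of POU family FPKM, ahead of Pou2f1 (Oct1) at 12.7 FPKM. Sox2 held 84.96% ± 0.9713 of the SOX family, ahead of Sox15 at 20.9 FPKM. Mycn led the MYC genes with 82.68% ± 1.175, at 69.3 FPKM against 8.4 for Myc. Krüppel-like factors were divided more evenly, and Klf2 led with 25.85% ± 1.322, before Klf10 at 54.3 FPKM and Klf9 at 44.7. By coding length Klf10 was at 38.3 FPKM, below Klf9. Tcf7 held 74.94% of the TCF/LEF factors that answer Wnt signals, and Tead2 62.05% of the TEAD factors of the Hippo pathway. By coding length the share of Tead2 was 50.81%.

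In chromatin families, 1 enzyme or reader usually led. Tet1, which oxidises methylated cytosine, held 72.08% ± 0.1789 (SD, n = 4) of TET FPKM against 22.1 FPKM for Tet2 and 1.91 for Tet3. The BAF remodeller ATPase Smarca4 (Brg1) held 98.81%, with Smarca2 (Brm) at 0.544 FPKM. Ezh2 held 78.32% of the EZH pair of Polycomb methyltransferases, and Cbx7 held 94.18% of the Polycomb CBX readers as deposited and 76% by coding length. Dnmt3l, the inactive partner of the de novo methyltransferases, was the highest DNA methyltransferase gene at 98.8 FPKM, before Dnmt1 at 69.3 and Dnmt3b at 63.2. Lin28a held 87.99% of the LIN28 pair.

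Adhesion, nuclear envelope and cytoskeleton genes were led by the following members. Cdh1 (E-cadherin) held 90.96% ± 0.2477 (SD, n = 4) of the classical cadherins at 175 FPKM, and Cdh2 (N-cadherin) was at 0.647 FPKM. Lmnb1 held 81.48% of the lamins, with Lmna, which rises in stiff and mature tissues, at 2.6 FPKM. The cytoplasmic actins were almost even: Actg1 was at 391, 402, 397 and 388 FPKM and Actb at 361, 391, 348 and 348. Actg1 was above Actb in every library, by a ratio between 1.029 and 1.141. Acta1, Acta2 and Actc1, the muscle actins, were between 0.111 and 0.177 FPKM. Tubb5 led the beta tubulins with 52.26% and Tuba1b the alpha tubulins with 59.24%.

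Of the metabolic families named here, each but the phosphofructokinases was led by 1 isoform with more than 60% of FPKM. Pkm held 99.97% of pyruvate kinase FPKM, Eno1 84.44% of enolase, Ldha 88.94% of lactate dehydrogenase and Slc25a5 82.53% of the ADP/ATP carriers. Hk2 led the hexokinases with 72.43% ± 1.666 (SD, n = 4) at 71.8 FPKM, ahead of Hk1 at 26.5. Slc2a3 held 93.14% of the glucose transporters as deposited and 67.33% by coding length, with Slc2a1 (GLUT1) at 161 FPKM. Pfkp led the phosphofructokinases with 57.99%. Cyct, the testis form of cytochrome c, was at 20.1, 18.6, 21.4 and 23.1 FPKM, beside 34.2 ± 1.79 for the somatic Cycs.

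In 2 chaperone and RNA-binding families the length decided the leader. Hsp90aa1 held 72.31% ± 0.2814 (SD, n = 4) of HSP90 FPKM as deposited, whereas by coding length Hsp90ab1 led with 54.77%. Pabpc4 held 61.12% ± 0.7282 of the poly(A)-binding proteins as deposited, whereas by coding length Pabpc1 led with 87.76% and Pabpc4 fell from 1530 to 120 FPKM. Among D cyclins Ccnd3 led with 51.37%, by a ratio to Ccnd1 between 1.085 and 1.179. Summed exon length in place of the transcript put Ccnd1 in the lead with 71.56%. In these 3 families the leading member is therefore not settled by the data.

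The 2 control groups had the same vector and treatment, as labelled, so their difference gives a noise level between control groups. Whether they are separate clones is not given, so the spread between clones may not be part of it. Tested with limma on log2(FPKM + 1), 0 of 12762 genes (0%) passed a Benjamini-Hochberg adjusted p of 0.05. The smallest adjusted p was 0.0578, and 2296 genes had an unadjusted p under 0.05. With 2 libraries against 2, an exact permutation test of a single gene cannot go below p = 0.333. Estimating the spread from more libraries brought calls: 58 genes (0.454%, with 0.141% higher and 0.313% lower in Cct5 KD Ctr) when the 2 Cct7 KD libraries joined the fit, and 494 (3.87%) with all 8. In the latter fit the 2 Cct5 KD libraries are tied to the Cct7 KD libraries, since in 19881 of 19896 genes they lie at or above 1 fixed multiple of the like-numbered Cct7 KD library, so the spread is not estimated from independent libraries. The test on recovered fragments (limma voom) called 926 of 12633 genes (7.33%), with 2.68% higher and 4.65% lower in Cct5 KD Ctr. How many genes differed between the controls therefore depends on the test, from 0 to 926.

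The differences were small under each of these tests. The median absolute difference between the group means was 0.06518 on the log2(FPKM + 1) scale, and 5 genes differed by at least 1. Replicates within a group differed by a median of 0.05032 in Cct5 KD Ctr and 0.05776 in Cct7 KD Ctr, and single libraries of different groups by 0.0718 to 0.0816. Over the same genes, Cct7 KD and its control differed by a median of 0.4649, and 2187 genes by at least 1. In that comparison limma called 11032 of 13552 genes (81.4%), 49.3% higher and 32.2% lower in Cct7 KD, and 20% with a fold of at least 2.

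Many of these small differences separated the groups. In 6516 of 12762 genes (51.1%) the libraries of the 2 groups did not overlap, with Cct5 KD Ctr higher in 2754 (21.6%) and lower in 3762 (29.5%). With 2 libraries against 2 and no group difference, a single gene fails to overlap with a probability of 0.333. Genes are not independent of each other, and the excess over that level was not tested. The median difference over all genes was -0.0133, so the deposited scaling left almost no shift.

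**Figure D4:**
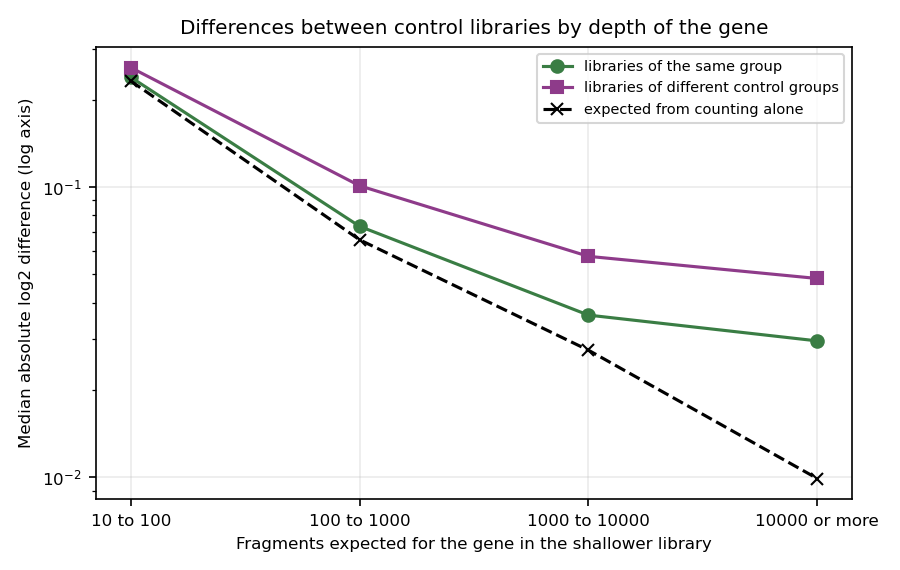
Median absolute log2 difference in fragments between 2 control libraries, by the number of fragments expected in the shallower library, on a log axis. Pairs of the same group and of different groups both start near the line expected from counting alone and rise above it as fragments increase, with different groups higher.

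The spread of weakly covered genes was close to counting noise, and that of strong ones was above it. In genes with 10 to 100 fragments, replicates differed by a median of 0.239 log2 units against 0.232 expected from counting. In genes with 10000 fragments or more they differed by 0.0295 against 0.0099, and libraries of different groups by 0.0484. Over genes with 1 annotated transcript, the chi-square of fragments divided by its degrees of freedom was 2.036 and 3.755 for the 2 replicate pairs. It was between 4.185 and 9.498 for the 4 pairs across groups. Pairs with Cct5 KD Ctr 1, the deepest library, were at 6.848 and 9.498, and those with Cct5 KD Ctr 2 at 4.185 and 5.946. For an equal difference this ratio grows with depth, so the range mixes depths. These values are means over genes, and a value of about 1 would be counting noise. By the median gene, set against the median expected from counting, the replicate pairs were at 1.239 and 1.348. The pairs across groups were at 1.693 to 2.012 by that measure. A library deposited 2 times would have equal values in every gene, which none of the 6 pairs had.

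Glycolysis, the breakdown of glucose to pyruvate and lactate, had the largest share of genes separating the controls in 1 direction, among lists with at least 10 genes tested. Of 18 genes 16 were lower in both Cct5 KD Ctr libraries than in both Cct7 KD Ctr libraries, 1 was higher and 1 overlapped, with a median of -0.135, beside 29.5% lower and a median of -0.0133 over all genes. Gpi1, which turns glucose-6-phosphate into fructose-6-phosphate, was at 244 and 252 FPKM against 307 and 303. Pgk1 was at 574 and 572 FPKM against 677 and 688, and the transporter Slc2a3 at 2040 and 2020 against 2360 and 2370. The groups did not overlap in these genes, and the replicates lay close together. No member passed the test of 4 libraries (limma, smallest adjusted p = 0.071, Gpi1). In the fit of 6 libraries 4 passed and by limma voom 12, all lower, beside 0.313% and 4.65% of all genes. The exception was the lactate transporter Slc16a1, at 44.7 and 46 FPKM against 42.4 and 42.9.

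Among single genes outside the list, those that follow were chosen because of their values, and none passed the test of 4 libraries. Ndrg1 was at 16.3 and 15.8 FPKM in Cct5 KD Ctr against 22.4 and 23.1 in Cct7 KD Ctr, a log2 difference of -0.48 (SE 0.036, limma adjusted p = 0.071). The collagen prolyl hydroxylase P4ha1 was at 25.4 and 24.5 FPKM against 33.8 and 32.6, and P4ha2 at 20.7 and 20.2 against 26.2 and 26.2. Txnip, which is induced by glucose, was at 146 and 145 FPKM against 188 and 189, and the annexin Anxa2 at 39.3 and 39.7 against 55.5 and 54.9.

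Some mitochondrially encoded transcripts were higher in Cct5 KD Ctr. Of 15 genes 6 were higher in both of its libraries, 0 were lower and 9 overlapped, beside 21.6% higher over all genes. The 15 differences had a median of 0.0843 and ran from -0.379 to 0.578. Over all 21 mitochondrial entries tested the median was 0.0416, smaller than the 0.053 between the 2 Cct5 KD Ctr replicates. Cytochrome b, mt-Cytb, was at 4130 and 3980 FPKM in Cct5 KD Ctr against 3110 and 2950 in Cct7 KD Ctr, a log2 difference of 0.42 (SE 0.044, limma adjusted p = 0.084). Complex I subunit mt-Nd1 was at 4960 and 4750 FPKM against 3970 and 3860. As a class, mitochondrial transcripts made up 4.976% and 4.819% of FPKM in Cct5 KD Ctr and 4.374% and 4.186% in Cct7 KD Ctr.

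**Figure D5:**
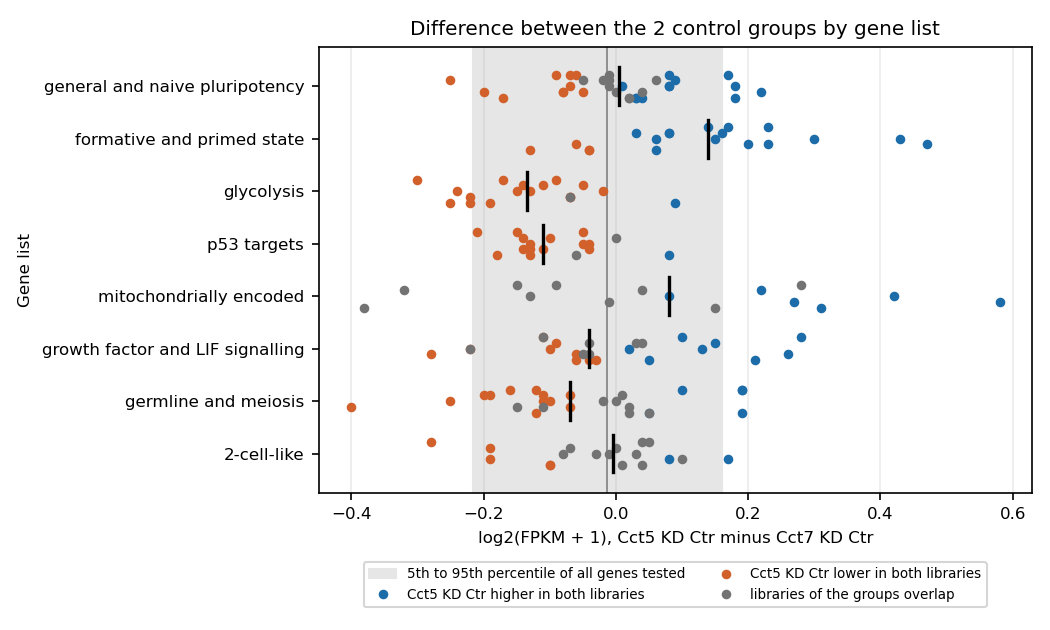
Difference between the control groups in log2(FPKM + 1), Cct5 KD Ctr minus Cct7 KD Ctr, for each gene of 8 lists, coloured by whether the libraries of the groups overlap, with list medians as bars and the 5th to 95th percentile of all genes shaded. Most glycolysis and p53 genes lie left of 0 and most formative genes to the right, within or near the shaded range.

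Formative and primed genes tended to be higher in Cct5 KD Ctr: of 19 tested, 15 were higher in both of its libraries and 4 lower, beside 21.6% and 29.5% over all genes, with a median of 0.143. Lefty2, an inhibitor of Nodal, was at 36.6 and 38.2 FPKM against 27.2 and 28 (log2 difference 0.43, SE 0.036, limma adjusted p = 0.071). Foxd3, which restrains differentiation, was at 5.24 and 5.31 FPKM against 3.68 and 3.38, and Dnmt3b at 66.9 and 67.1 against 59.5 and 59.1. Dnmt3l went the other way, at 93.2 and 95.3 against 103 and 103, and Nodal itself was at 17.7 and 18 against 17.4 and 17.5. In the fit of 6 libraries 1 member passed, higher in Cct5 KD Ctr as were 0.141% of all genes. By limma voom 6 were higher and 1 lower, beside 2.68% and 4.65% of all genes.

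The naive pluripotency list had 12 of 32 genes higher in Cct5 KD Ctr, 10 lower and 10 overlapping (median 0.00518), where all genes had 21.6% higher and 29.5% lower. Klf2 was at 73.3 and 76.1 FPKM against 83.3 and 84.8, and Pou5f1, Sox2 and Nanog differed by 0.03, 0.04 and 0.01 on the log2 scale. Of 17 p53 targets 14 were lower in Cct5 KD Ctr and 1 higher (median -0.107), beside 29.5% and 21.6% of all genes, with Cdkn1a at 82.7 and 82.7 FPKM against 92.2 and 89.6. In 2-cell-like genes 11 of 18 overlapped (median -0.00442), as did 6246 of all 12762 genes. The CCT list had 4 of 9 higher, 1 lower and 4 overlapping, against the same shares of all genes, with Cct5 and Cct7 differing by 0.04 and 0.01.

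The hairpins of the miR-290 cluster, at chr7:3218626-3220841 on the plus strand of GRCm38, were all higher in both Cct5 KD Ctr libraries, 7 of 7, where 13 of 66 microRNA entries (19.7%) and 21.6% of all genes were. Mir291b was at 102.4 and 97.78 FPKM against 73.59 and 82.53. Mir295 was at 45.8 and 41.64 FPKM against 25.93 and 31.08. In the weakest difference, Mir294 was at 35.88 and 37.57 FPKM against 35.67 and 33.7, a gap of about the replicate spread. The 7 hairpins are cut from 1 primary transcript, so they are not 7 independent results, and each rests on 18 to 443 fragments. The entries, of 69 to 84 bases, are shorter than the 200 to 600 bp fragments that were sequenced, so the values are of precursor RNA and not of the mature sequences shown above. The cluster was chosen after its values were seen, and none of its entries passed the test of 4 libraries.

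Other single genes were also chosen after their values were seen. The noncoding Bc1, of 168 bases, was at 5.76 and 5.33 FPKM against 2.13 and 1.79 (log2 difference 1.15, limma adjusted p = 0.067). It is shorter than the 200 to 600 bp fragments that were sequenced, and at that length these values rest on few fragments. H2-Ab1, an MHC class II chain, was at 1.52 and 1.38 FPKM against 3 and 3.07. Myc was at 9.58 and 9.93 FPKM against 6.85 and 7.23. In each of these 3 genes the libraries of the groups did not overlap, as in 51.1% of all genes tested. Since they were chosen by their values, that is no further evidence, and none passed the test of 4 libraries.

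By chromosome, the controls differed little. The median log2 difference between the control groups lay between -0.0262 and -0.000908 on the autosomes and X, and replicates differed by at most 0.0148. Against this flat background, Cct7 KD minus its control had medians of -0.2637 on chromosome 11, -0.1884 on chromosome 1 and 0.0382 on chromosome 8. The other 16 autosomes lay between 0.0819 and 0.308. On the Y chromosome all 6 genes tested were lower in Cct7 KD, with a median of -1.139, and the X chromosome had a median of 0.3844. The 3 autosomes were picked after their values were seen, and copy number was not measured.

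Some control transcripts were near absent in Cct7 KD, by amounts far above the noise between controls. Genes with the reverse pattern are given last. Hprt, the purine salvage enzyme, was at 162.6, 158.7, 161.3 and 161.2 FPKM in the 4 controls and at 1.12 and 0.7805 in Cct7 KD. Otx2 was at 1.361 and 1.396 FPKM in Cct7 KD, below its 4 control values given above, and Dppa3 at 4.39 and 4.386. Ifitm1 was at 3.546 and 4.262 FPKM in Cct7 KD, against a control mean of 164. The pseudogene Rps15a-ps7 was at 2.578 and 2.161 FPKM, against a control mean of 153. Of 12 genes listed at 0 in all 4 controls the highest in Cct7 KD was the pseudogene Ftl2-ps, at 183.5 and 157.8 FPKM. It was followed by the unnamed AC125544.1 and AC165951.1, the muscle and heart oxidase subunit Cox6a2 at 0.7784 and 1.557 FPKM, and Hoxb5 at 1.054 and 1.064. Genes with the fewest reads appear to be omitted, so a gene at 0 in these controls is listed only through its knockdown reads. The direction in these 12 genes was therefore fixed in advance.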

How the data were processed

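Values are FPKM per gene as deposited by the authors in 2 tables, each with 1 control group and 1 knockdown. HTSeq and mm10 are named in the submitters' processing notes, while for the aligner, annotation and filters the sources used here give nothing. The tables held 21055 and 20909 entries. Identifiers listed 2 times (8 and 6) were left out, which left 19896 genes in both, 19855 of them with a symbol in GENCODE M21.

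Whole fragments were recovered from the step of FPKM values in genes with 1 transcript (99% to 99.3% whole within 0.05 fragments, at least 95% required). FPKM denominators were 54.7 and 21.2 in Cct5 KD Ctr and 22.4 and 23.3 in Cct7 KD Ctr, in units of 1000000 fragments, so 1 fragment on 1 kb is worth 0.0183, 0.0471, 0.0447 and 0.0429 FPKM. For the other genes each annotated transcript length was tried in turn.

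Groups were compared with limma 3.58.1 in R 4.3.3 (eBayes with a mean trend, two-sided) on log2(FPKM + 1), over genes whose mean reached 1 FPKM, at a Benjamini-Hochberg adjusted p under 0.05. Such differences understate the change of low genes. Checked on simulated data for the 2 controls (12762 genes), planted log2 changes of 0.25, 0.5, 1 and 2 were called in 74%, 100%, 100% and 100%, with 5 false calls in 12562. Each simulated gene was given the smoothed spread of genes at its level. Real genes differ in spread at the same level, so these rates need not hold in the real libraries. There mt-Cytb, with a log2 difference of 0.42, was not called. The table work used Python 3.11.15 with pandas 2.3.3 and numpy 2.4.6.

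Replicate numbers were not taken to pair the libraries: with 2 pairs, deviations of same-numbered control libraries correlated by 0.0445. The rule for named genes took the stem cell markers, Cct5, Cct7, Hprt, Xist and Y-linked genes, the 20 highest genes, the 2 highest members of a family, the 4 highest of a list and every gene above 1 FPKM in the 9 somatic and extraembryonic lists, the largest calls between controls, and the extremes against Cct7 KD. Not every gene it takes is printed, and members outside it, such as low lineage regulators, serve as contrast. The members and lists were chosen with earlier results of these data known. Alternatives covered scaling, pseudocount, filter, fold, block, more libraries in the fit, single libraries left out and other lengths. The fit of 6 libraries, limma voom, the common FPKM total and the other lengths were added after seeing the data. Cct5 KD values were used only in the fit of all 8.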

Additional observations from a re-analysis of the deposited data

Results flagged for a closer look

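In 69 sets of 4 control values, 3 had 1 library set apart beyond Dixon's 95% critical value for the gap over the range, where chance gives about 1 in 20. The FPKM denominator of Cct5 KD Ctr 1 was 54.7 beside 21.2, 22.4 and 23.3, in units of 1000000 fragments, a gap of 0.938 of the range. The summed FPKM of primitive endoderm genes was 245 in Cct5 KD Ctr 1 beside 254, 252 and 252, a gap of 0.849 of the range. The share of Slc2a3 among the glucose transporters was 92.9% in Cct5 KD Ctr 2 beside 93.2% in each of the other libraries, a gap of 0.891 of the range.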

How the results depend on the processing

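The count of genes that differ between the control groups, 0 by the test of 4 libraries, was 20 after scaling to a common FPKM total, 58 in the fit of 6 libraries, 494 in the fit of all 8 and 926 by limma voom. Leaving out 1 library gave 0 to 103 calls, 103 without Cct7 KD Ctr 1 and 19 without Cct7 KD Ctr 2. The lone library is then assumed to vary like the other group. With the replicate number as a block, 0 genes were called between the controls and 10946 between Cct7 KD and its control. A fold of at least 2 left 2704 of the 11032 calls in Cct7 KD, and median-of-ratios scaling moved the share of higher calls from 60.5% to 47%. Of 185 genes in 11 lists, the 9 somatic and extraembryonic ones with the germline and 2-cell-like lists, 23 had a mean under 0.1 FPKM, 15 were under it in every library and 95 had a mean under 1 FPKM. The leader of the poly(A)-binding proteins changed by coding length (87.8%) and summed exon length (80.3%), that of HSP90 likewise (54.8% and 55.4%), and that of D cyclins by summed exon length (71.6%). With at least 100 fragments expected, the mean chi-square ratio was 5.9 within and 17.3 across groups. The difference of Sox2 ranged from -0.0038 without Cct7 KD Ctr replicate 1 to 0.08 without Cct7 KD Ctr replicate 2, and no other of 24 named genes changed sign. The other 51 alternatives of the summary counts stayed within 1.5 times, or within the spread between libraries, of the value reported. Depth limits genes near 0.1 FPKM, since 1 fragment on 1 kb is worth up to 0.0471 FPKM.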

Other observations

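In 29 of 19573 genes with a recovered length, the control values were whole fragments while the Cct7 KD values were not. Cct7 is 1 of them.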
